A study of Mus musculus with 34 samples.

Results

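SMAD4 occupied 8137 regions of the mouse genome in Kupffer cells and also in bone-marrow-derived macrophages (BMDM), out of 27426 regions that it occupied reproducibly in either cell type. A region was counted as reproducible when peaks of both libraries of a cell type overlapped by at least 1 bp, which gave 18593 regions in Kupffer cells and 16969 in BMDM. A Kupffer cell region was then called shared when it overlapped a BMDM region by at least 1 bp. The remaining 10456 Kupffer cell regions and 8833 BMDM regions had no such overlap. The shared regions were thus chosen by SMAD4 peaks, and all SMAD4 levels below are descriptions without a test. H3K27ac, an acetylation of histone H3 at active promoters and enhancers, and the peaks of LXR and RBPJ took no part in that choice.

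The series profiled Kupffer cells, the resident macrophages of the liver, beside other macrophages and blood monocytes, with 2 chromatin immunoprecipitation (ChIP-seq) libraries per group and antibody. SMAD4 was profiled in nuclei of untreated Kupffer cells from Clec4f-cre mice and in untreated C57BL/6J BMDM after 4 days of culture. H3K27ac was profiled in untreated C57BL/6J Kupffer cells, in the liver macrophages labelled RLM, which came from Clec4f-cre/Rosa26iDTR mice 24 h after diphtheria toxin, and in untreated C57BL/6J blood Ly6C-high monocytes. A separate H3K27ac experiment used C57BL/6J BMDM cultured for 4 days, with DLL4 for 24 h or untreated. LXR was profiled in Kupffer cells of Clec4f-cre mice and in 7 day C57BL/6J BMDM given the agonist GW3965 for 18 h, and RBPJ in Kupffer cell nuclei of Clec4f-cre mice and in untreated 4 day C57BL/6J BMDM. For the SMAD4, LXR and RBPJ libraries of Kupffer cells the file headers name C57B6J where the labels give Clec4f-cre, so the strain of these cells is in doubt. The Clec4f promoter drives Cre in Kupffer cells, so that diphtheria toxin removes resident Kupffer cells in mice that also carry the inducible toxin receptor. Labelled strain, toxin, sorting and culture differ along with cell type in these comparisons and cannot be told apart from it.

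SMAD4 is the shared partner of the receptor-activated SMADs: TGF-beta and activin receptors phosphorylate SMAD2 and SMAD3, BMP receptors phosphorylate SMAD1, SMAD5 and SMAD9, and the complexes enter the nucleus with SMAD4. SMADs contact short DNA elements and are generally recruited beside lineage factors such as PU.1, so that the same pathway acts at different enhancers in different cells. In Kupffer cells, TGF-beta and BMP signals from the liver niche act together with the Notch ligand DLL4, which signals through RBPJ, and with the oxysterol receptor LXR.

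Promoters make up a large part of the shared regions, and a few promoter windows that shared regions reach into are printed here. Shared regions reached into 1988 promoter windows of 1874 genes, each window being the 250 bases before a RefSeq transcription start (GRCm38.p6). Smad6 is the strongest shared promoter that has a window, Tgif1 and Tgfbr1 are pathway genes, C1qc is a macrophage gene, and Ptprm had one of the largest H3K27ac differences. They lie at chr9:64022060-64022309 (minus strand), chr17:70851735-70851984 (minus), chr4:47352972-47353221 (plus), chr4:136892915-136893164 (minus) and chr17:67354460-67354709 (minus). Capitals mark the SMAD box CAGAC or its complement GTCTG, the GC-rich SMAD element GGCGCC, and the ETS core GAGGAAGT or its complement ACTTCCTC, which PU.1 can bind.
Smad6: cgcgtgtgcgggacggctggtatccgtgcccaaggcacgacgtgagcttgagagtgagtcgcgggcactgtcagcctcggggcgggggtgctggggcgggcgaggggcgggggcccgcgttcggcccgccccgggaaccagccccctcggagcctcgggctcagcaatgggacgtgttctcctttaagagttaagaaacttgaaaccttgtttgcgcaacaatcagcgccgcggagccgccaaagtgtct
Tgif1: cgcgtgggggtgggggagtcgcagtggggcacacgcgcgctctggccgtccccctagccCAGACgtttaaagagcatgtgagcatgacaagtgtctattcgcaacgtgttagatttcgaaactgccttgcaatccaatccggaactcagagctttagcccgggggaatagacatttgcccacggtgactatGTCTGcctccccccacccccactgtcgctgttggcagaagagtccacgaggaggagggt
Tgfbr1: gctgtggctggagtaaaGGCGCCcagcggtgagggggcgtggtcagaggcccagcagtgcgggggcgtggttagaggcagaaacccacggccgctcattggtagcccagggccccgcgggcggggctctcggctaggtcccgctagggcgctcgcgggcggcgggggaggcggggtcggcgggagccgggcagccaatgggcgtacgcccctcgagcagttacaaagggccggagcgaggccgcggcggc
C1qc: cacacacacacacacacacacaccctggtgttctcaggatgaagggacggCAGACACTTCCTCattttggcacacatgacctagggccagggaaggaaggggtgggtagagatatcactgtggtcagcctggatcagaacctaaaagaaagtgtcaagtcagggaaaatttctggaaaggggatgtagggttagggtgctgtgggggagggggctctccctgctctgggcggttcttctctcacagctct
Ptprm: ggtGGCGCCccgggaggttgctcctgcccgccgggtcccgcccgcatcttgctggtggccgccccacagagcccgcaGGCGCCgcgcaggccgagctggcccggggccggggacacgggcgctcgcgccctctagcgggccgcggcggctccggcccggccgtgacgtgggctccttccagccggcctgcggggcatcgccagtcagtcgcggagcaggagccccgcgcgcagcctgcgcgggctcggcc
The SMAD4 regions cover only part of each window: 98 (Smad6), 203 (Tgif1), 88 (Tgfbr1), 208 (C1qc) and 158 (Ptprm) of the 250 bases. The Tgfbr1 window is reached by a promoter region (chr4:47353134-47353312), not by the upstream region described below. Its marked element lies outside that promoter region. The Smad6 window held none of these elements, the Tgif1 window held 2 SMAD boxes, and the Ptprm window held 2 GC-rich elements. In the C1qc window a SMAD box was directly followed by an ETS core, the 2 elements not overlapping.

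Across all windows under shared regions, on both strands, GGCGCC was found in 22.4%, against 23.6% of windows under Kupffer cell only regions, 13.3% under BMDM only regions and 9.59% of all 32851 RefSeq windows. The CAGAC box was found in 43.9% of windows under shared regions and in 42.2% of all windows. CACGTG, the E-box of the MITF and TFEB family, was in 11.1% against 6.02% of all windows, and GAGGAAGT in 4.73% against 2.44%. TGACTCA, the AP-1 site, was in 3.92% against 4.46%, and the palindrome GTCTAGAC in 0.252% against 0.167%. Windows under shared regions had a median GC content of 63.2%, against 52.4% for all windows, and no count was adjusted for that difference.

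Shared regions had a higher SMAD4 level than the regions found in a single cell type. In normalized tag counts (tags per 10 M, from the authors' peak lists), their medians were 32.2 and 49.9 in the Kupffer cell libraries and 61.9 and 57.4 in the BMDM libraries. Kupffer cell only regions had medians of 21.6 and 37.1 in Kupffer cells, and BMDM only regions 45.8 and 46.0 in BMDM. The lowest and highest shared values were 5.28 and 946 in Kupffer cell library 1 and 8.08 and 976 in BMDM library 1. Peaks held 9.46% and 11.70% of tags in the Kupffer cell libraries, against 18.10% and 14.68% in the BMDM libraries. The ratios and ranks of levels between the cell types below therefore do not measure absolute occupancy. The part of this gap in them was not tested.

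The relative level of SMAD4 varied widely among the shared regions. The log2 ratio of Kupffer cell to BMDM level had a median of -0.54, with 10% of regions below -1.63 and 10% above 0.63. Both Kupffer cell libraries lay above both BMDM libraries at 863 regions (10.6%), both BMDM libraries lay above both Kupffer cell libraries at 3618 (44.5%), and the groups overlapped at 3656 (44.9%). Over all 8584 regions with a value in all 4 libraries, these orders held at 10.7% and 44.3%. Most of these regions are the 8137 shared ones themselves, so these shares give no separate background. A mean level at least 2-fold higher in Kupffer cells was seen at 390 shared regions, and at least 2-fold higher in BMDM at 2425.

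**Figure D1:**
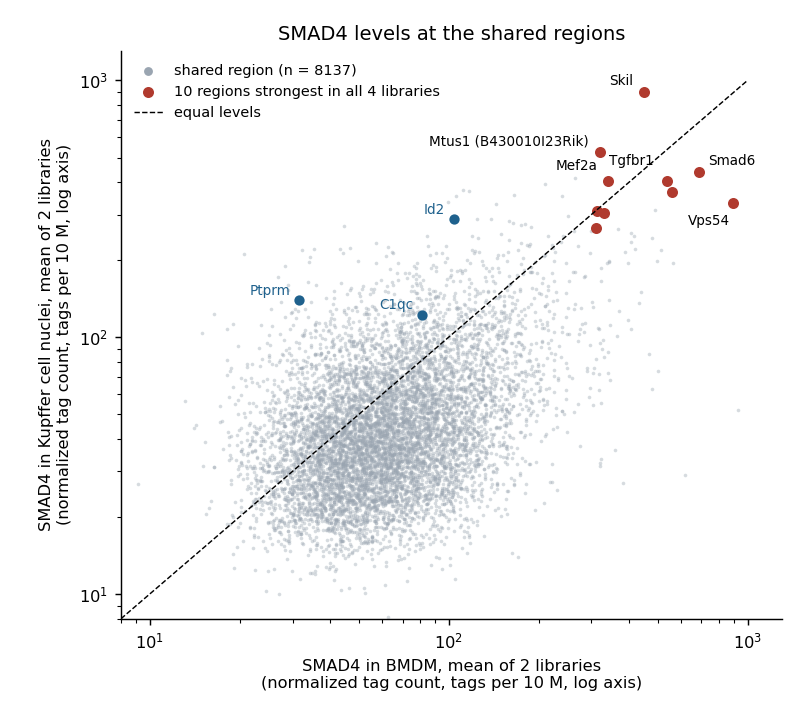
SMAD4 level at the 8137 shared regions, as the mean normalized tag count of 2 Kupffer cell libraries (vertical, log axis) against that of 2 BMDM libraries (horizontal, log axis). Red points are the 10 regions whose lowest library is highest, blue points are other regions named in the text, and the dashed line marks equal levels; the cloud lies mostly below the line, with Skil, Id2 and Ptprm above it.

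The rule has edges on both sides. The overlap of Kupffer cell and BMDM regions ranged from 3 to 314 bp with a median of 175, against a median region width of 197 bp, and 22 regions overlapped by less than 20 bp. The smallest overlap, 3 bp, was in an intron of Itprid2 (listed as Ssfa2, chr2:79653648-79653826), with SMAD4 values of 56.0 and 68.7 in Kupffer cells and 52.0 and 40.9 in BMDM. Just outside, 3 Kupffer cell regions abutted a BMDM region with a gap of 0 bp and 109 lay within 100 bp. One of the abutting regions was at the Ifitm6 promoter (chr7:141017033-141017211), with 77.6 in each Kupffer cell library. Peaks of a single BMDM library covered 34.0% (library 1) and 17.1% (library 2) of the Kupffer cell only regions, and peaks of Kupffer cell libraries 1 and 2 covered 36.9% and 11.2% of the BMDM only regions.

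Most shared regions were distal. Their median distance to a transcription start was 6275 bp, with 42.1% beyond 10 kb and 2710 (33.3%) within 1 kb. The share within 1 kb was 38.0% for Kupffer cell only and 17.9% for BMDM only regions. Each region was named after the gene with the nearest start, which is a position and not a target. Within 100 kb, 4879 genes had a shared region, 3250 of them a single one and 146 at least 5. Plekho2 had 12 such regions, Arhgap25 had 10, and Abca1 (the cholesterol exporter), Entpd1, Fos and Lpin2 had 8 each.

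By nearest start, the 10 shared regions highest in their lowest library included 3 listed TGF-beta and BMP pathway genes, Skil, Smad6 and Tgfbr1. Skil encodes SnoN, a repressor of SMAD complexes, and its promoter region (chr3:31094604-31094782) had SMAD4 values of 946 and 848 in Kupffer cells and 536 and 361 in BMDM. Smad6 encodes an inhibitory SMAD of BMP signalling, and its promoter (chr9:64021978-64022157, sequence above) had 368 and 510 in Kupffer cells and 672 and 705 in BMDM. A region 37606 bp upstream of Tgfbr1, the type I TGF-beta receptor (chr4:47315527-47315705), had 401 and 407 in Kupffer cells and 558 and 515 in BMDM. That region lies closer to the end of Col15a1, 2449 bp away, than to Tgfbr1. Skil is therefore higher in both Kupffer cell libraries, while Smad6 and the Tgfbr1 region are higher in both BMDM libraries.

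The other 7 of the 10 had their nearest start at genes outside the pathway lists, although the region by Smad7 lies beside a listed inhibitor. An intron of Fmnl3 (chr15:99333032-99333210, nearest start Prpf40b) had 369 and 366 in Kupffer cells and 592 and 523 in BMDM. An intron of Mtus1 (chr8:41016321-41016499, nearest start B430010I23Rik) had 464 and 584 in Kupffer cells and 372 and 269 in BMDM. The region upstream of Vps54 (chr11:21223658-21223842) had the highest value of any shared region in BMDM library 1, with 265 and 400 in Kupffer cells and 976 and 814 in BMDM. The region assigned to Mef2a, a MADS-box factor, lies 89204 bp from its start. It is closer to the body of Lrrc28 (51348 bp) than to that of Mef2a (85606 bp). Further regions lie near Ccdc88b, near Cyth4 (nearest start Gm36738) and 179 bp from Smad7, the inhibitory SMAD of TGF-beta signalling (nearest start Gm20544). Together with the Mef2a region, they ranged from 254 to 469 in Kupffer cells and from 286 to 361 in BMDM. Of the 10, 8 also carried reproducible peaks of LXR and RBPJ in both cell types, the exceptions being Smad6 (no RBPJ peak in Kupffer cells) and the region by Smad7 (no LXR peak in either).

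Peaks of LXR and RBPJ covered a larger share of the shared regions than of the SMAD4 regions of a single cell type, except for RBPJ of BMDM under a stricter overlap. A reproducible LXR peak of Kupffer cells covered 72.3% of shared regions (95% exact binomial interval 71.4 to 73.3), against 59.6% of Kupffer cell only and 25.1% of BMDM only regions. RBPJ of Kupffer cells, the DNA-binding effector of Notch signalling, covered 28.0%, against 15.9% and 4.57%. LXR of BMDM with GW3965 covered 61.6% (60.5 to 62.6), against 29.6% and 43.7%. RBPJ of BMDM covered 93.3% (92.7 to 93.8), against 60.7% and 89.9%. With any overlap of at least 1 bp the share was highest at the shared regions in all 4 sets, and the 95% intervals drawn in the plot of these shares, which cover counting error only, do not overlap. With a reciprocal overlap of 50% the order turned for RBPJ of BMDM, at 80.3% of shared regions (79.4 to 81.2) and 81.3% of BMDM only regions (80.4 to 82.1).

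The number of peaks called sets these shares in part. The RBPJ libraries of Kupffer cell nuclei had 0.76% to 1.01% of tags in peaks and 11277 to 13394 peaks, against 24.49% to 25.10% and 78976 to 80480 peaks in BMDM, so the RBPJ shares of the 2 cell types are not on one scale. Per the file headers, SMAD4 library 2 and RBPJ library 1 of Kupffer cell nuclei were called against the same input, and LXR library 2 of Kupffer cells used an input named for another diet. The part of these in the shares was not tested. All 4 peak sets met at 1459 shared regions (17.9%), against 5.31% of Kupffer cell only and 1.89% of BMDM only regions, and 190 shared regions (2.34%) had none.

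**Figure D2:**
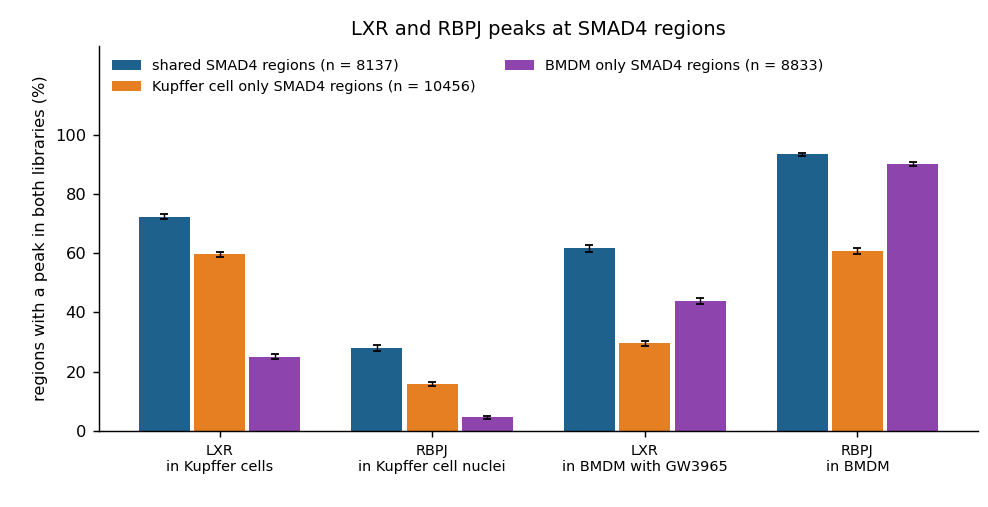
Share of SMAD4 regions (%, vertical) with a peak in both libraries of LXR or RBPJ in Kupffer cells or BMDM, for shared, Kupffer cell only and BMDM only regions. Bars are shares and whiskers 95% exact binomial intervals; the shared regions have the highest share for each factor at this overlap of at least 1 bp, from 28.0% for RBPJ in Kupffer cell nuclei to 93.3% for RBPJ in BMDM, and with a reciprocal overlap of 50% RBPJ in BMDM turns to 80.3% of shared and 81.3% of BMDM only regions.

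Co-binding varied with position and with the side SMAD4 leaned to. LXR of BMDM covered 36.4% of shared regions within 1 kb of a start and 74.2% of those farther away, while LXR of Kupffer cells covered 67.4% and 74.8%. RBPJ of Kupffer cells covered 46.5% of the 863 regions where SMAD4 was higher in both Kupffer cell libraries and 20.8% of the 3618 where it was higher in both BMDM libraries. For RBPJ of BMDM the shares were 84.2% and 96.4%. Of these 2 groups of regions, 48.4% and 26.8% lay within 1 kb of a start.

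Nearly all shared regions lay in acetylated chromatin. A 2000 bp H3K27ac region overlapped 8051 of them (98.9%) in the table of liver and blood cells and 8120 (99.8%) in the BMDM table, and 7 lay in neither. In the table of liver and blood cells 95.5% of Kupffer cell only and 83.7% of BMDM only regions were covered. H3K27ac values below are tags per M (CPM), scaled by TMM, in the region that covers the SMAD4 site. The tables were scaled separately, so levels are compared only within one. Each value averages a population, and more cells carrying the mark cannot be told apart from more of the mark per cell.

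H3K27ac was skewed toward Kupffer cells over RLM at the shared regions, as it was at the Kupffer cell only regions. Both sets needed SMAD4 peaks in Kupffer cells, and SMAD4 was not profiled in RLM or monocytes. The part of that choice in the Kupffer cell calls against RLM and monocytes was not tested. Median levels were 15.9 and 18.0 CPM in the Kupffer cell libraries, 9.07 and 8.94 CPM in RLM and 9.92 and 9.99 CPM in monocytes. Against RLM, Kupffer cells had a called increase (adjusted p under 0.05 and at least a 2-fold difference in edgeR's quasi-likelihood test with Benjamini-Hochberg adjustment) at 2682 of 8039 shared regions tested (33.4%) and a called decrease at 350 (4.35%, or 221 regions without Kupffer cell library 2). Over all 80982 H3K27ac regions the calls were 22.3% higher and 13.9% lower. The median log2 difference was 0.58 at shared regions and -0.04 over all regions. At Kupffer cell only regions 37.2% were higher and 4.3% lower, with a median of 0.56, and at BMDM only regions 19.5% and 17.3%, with a median of -0.03.

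Against monocytes, Kupffer cells were higher at 2678 shared regions (33.3%, 24.9% of all regions) and lower at 860 (10.7%, 17.7% of all), against 39.0% and 9.35% of Kupffer cell only and 22.6% and 23.1% of BMDM only regions. RLM against monocytes were higher at 978 (12.2%, 8.57% of all) and lower at 1034 (12.9%, 9.14% of all), with a median log2 difference of -0.07. Calls in the 2 directions were thus near balance between RLM and monocytes. These 3 comparisons share libraries and are not independent.

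The 3 groups followed no single order. Levels were highest in Kupffer cells, then RLM, then monocytes, without overlap of libraries, at 1616 shared regions (20.1%, against 13.0% of all regions), and in the reverse order at 603 (7.5%, against 10.4%). RLM lay below both Kupffer cells and monocytes at 1860 (23.1%, against 11.5%), and above both at 584 (7.26%, against 12.0%). Kupffer cells lay above monocytes and monocytes above RLM at 792 (9.85%, against 4.92%).

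Distal shared regions held most of the difference. Beyond 1 kb from a start, 45.5% were higher in Kupffer cells than RLM and 3.53% lower, with median levels of 11.9 and 13.6 CPM in Kupffer cells, 5.78 and 5.69 CPM in RLM and 6.28 and 6.11 CPM in monocytes. Within 1 kb, 9.53% were higher and 5.98% lower, with 25.0 and 27.7 CPM in Kupffer cells, 23.8 and 23.7 CPM in RLM and 23.4 and 24.8 CPM in monocytes. Regions called higher in Kupffer cells than RLM lay a median of 12976 bp from a start, those called lower 1831 bp and those not called 2039 bp. Calls by position were not counted for all H3K27ac regions or for the other SMAD4 sets. Whether the split by position is particular to shared regions was therefore not tested.

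The share called higher also moved with SMAD4 level and co-binding. In 4 groups of about equal size, from the weakest to the strongest SMAD4, 25.5%, 30.1%, 35.9% and 41.9% were higher in Kupffer cells than RLM. Where all 4 LXR and RBPJ peak sets met, the share was 45.0%, and where none was present it was 16.4%. By the side SMAD4 leaned to, it was 32.7% where SMAD4 was higher in both Kupffer cell libraries and 32.9% where it was higher in both BMDM libraries. The share within 1 kb of a start moved along with these groups, at 38.9%, 36.5%, 33.1% and 24.6% over the 4 SMAD4 groups and 20.7% and 58.9% with all and no other factor; its part in the result was not tested.

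**Figure D3:**
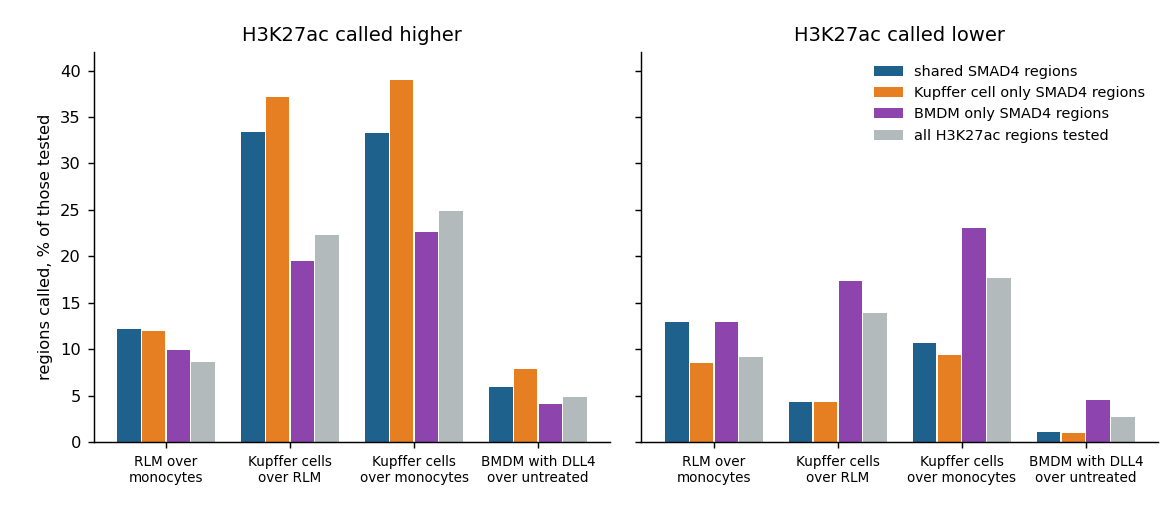
Percent of tested regions whose H3K27ac was called higher (left) or lower (right) in 4 comparisons, for shared, Kupffer cell only and BMDM only SMAD4 regions and for all H3K27ac regions tested. At shared regions 33.4% were higher and 4.35% lower in Kupffer cells than RLM, against 22.3% and 13.9% of all regions.

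Markers were read in the same libraries. The summed H3K27ac of 4 Kupffer cell markers (Clec4f, Timd4, Vsig4, Cd5l) was 816 and 1020 CPM in Kupffer cells, 91.4 and 101 CPM in RLM and 48.0 and 38.5 CPM in monocytes, and that of 5 monocyte markers 181 and 205 CPM in Kupffer cells, 411 and 395 CPM in RLM and 400 and 404 CPM in monocytes. Markers of other liver cells moved with the comparison: 5 endothelial markers gave 154 and 173 CPM in Kupffer cells, 98.7 and 90.2 CPM in RLM and 83.1 and 75.7 CPM in monocytes. For 3 of 5 hepatocyte markers with a region the sums were 39.6 and 45.1 CPM in Kupffer cells, 16.9 and 18.6 CPM in RLM and 14.5 and 16.0 CPM in monocytes, and for the 1 stellate cell marker with a region all 6 libraries lay between 0.119 and 1.31 CPM. The 5 neutrophil markers gave 21.0 to 28.1 CPM and the 1 lymphocyte marker with a region 0.587 to 1.45 CPM in the 6 libraries. Endothelial markers also stood at 132 and 134 CPM in BMDM with DLL4 and 51.1 and 53.3 CPM in untreated BMDM, a culture. No marker with a region was at 0 tags, and the part of other cells in the H3K27ac differences was not tested.

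Genes of the TGF-beta and BMP pathway with a shared region (28 of 60 listed, counting a gene only by the nearest start) are taken by role, each at its strongest shared region. Among 12 ligands, Tgfb1, Tgfb3 and Bmp2 had a shared region, and all 3 were higher in Kupffer cells than in monocytes. The Tgfb1 region, in an intron (chr7:25689269-25689456) had 49.1 and 65.2 CPM in Kupffer cells, 49.8 and 40.5 CPM in RLM and 20.9 and 33.6 CPM in monocytes. Kupffer cells and RLM overlapped there, and the difference from monocytes was 1.07 ± 0.22 (log2 ± SE, adjusted p = 2.35e-05), below 1 without Kupffer cell library 2 (0.86) or monocyte library 1 (0.72). The Bmp2 region, 54152 bp from its start, had 10.0 and 14.1 CPM in Kupffer cells, 3.94 and 6.7 CPM in RLM and 3.22 and 3.3 CPM in monocytes, a difference of 1.90 ± 0.34 from monocytes (adjusted p = 1.49e-06). The region assigned to Tgfb3 lies 98836 bp away, inside Ttll5, and was 2.39 ± 0.38 higher in Kupffer cells than RLM.

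Of 12 receptors, 6 had a shared region: Tgfbr1, Tgfbr2, Acvr1, Acvr1b, Acvr2a and Bmpr2. The region 2937 bp upstream of Tgfbr2, the type II TGF-beta receptor, had 22.4 and 26.9 CPM in Kupffer cells, 8.28 and 6.5 CPM in RLM and 6.86 and 7.51 CPM in monocytes. Kupffer cells lay above both other groups, by 1.75 ± 0.28 over RLM (adjusted p = 3.11e-07) and 1.78 ± 0.27 over monocytes (5.85e-08). The promoter of Bmpr2, the type II BMP receptor, went the other way, with 26.3 and 26.6 CPM in Kupffer cells, 57.1 and 51.7 CPM in RLM and 37.2 and 41.9 CPM in monocytes. Its difference from RLM was -1.04 ± 0.21 (adjusted p = 3.42e-05), and it fell short of 2-fold without RLM library 1 (-0.94) or Kupffer cell library 1. At the promoter of Acvr1b, an activin receptor, Kupffer cells had 13.9 and 12.8 CPM, RLM 13.1 and 12.9 CPM and monocytes 10.8 and 14.1 CPM, and no comparison passed. Of the SMAD proteins themselves, 2 of 6 had a shared region: Smad1, 99369 bp from its start, was higher in Kupffer cells than RLM (1.63 ± 0.40, adjusted p = 0.0005), and Smad3, in an intron, was not called in any comparison.

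Of 12 inhibitors of the pathway, 8 had a shared region by nearest start. Smad7 was not counted, since the strong region 179 bp from it has its nearest start at Gm20544. At the Skil promoter H3K27ac was 82.6 and 75.7 CPM in Kupffer cells, 132 and 116 CPM in RLM and 51.0 and 58.5 CPM in monocytes. RLM lay above both other groups there, by 1.18 ± 0.19 over monocytes (adjusted p = 1.37e-06), while the difference of Kupffer cells from RLM was -0.65 ± 0.19. The Smad6 promoter had 23.7 and 25.8 CPM in Kupffer cells, 12.3 and 13.7 CPM in RLM and 7.03 and 5.53 CPM in monocytes, a stepwise order with 1.98 ± 0.27 between Kupffer cells and monocytes (adjusted p = 2.75e-09). The step between RLM and monocytes (1.05 ± 0.28) fell below 2-fold without RLM library 2 (0.97) or monocyte library 2 (0.89). An intron of Ski, a second SMAD corepressor, had among the strongest SMAD4 of the list (230 and 198 in Kupffer cells, 341 and 436 in BMDM) on little acetylation, with 6.91 and 5.04 CPM in Kupffer cells, 1.71 and 2.54 CPM in RLM and 4.13 and 2.06 CPM in monocytes. The Bambi promoter, of a decoy receptor, was lower in Kupffer cells (3.7 and 2.52 CPM) than RLM (6.7 and 7.62 CPM) and monocytes (7.19 and 9.91 CPM), by -1.50 ± 0.35 against monocytes (adjusted p = 0.000176). Tgif1, a corepressor whose window is printed above, stood at 80.0 and 128 CPM in Kupffer cells, 116 and 111 CPM in RLM and 106 and 105 CPM in monocytes, and its groups overlapped.

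Of 18 other targets, 9 had a shared region, and 7 of these were higher in Kupffer cells than in monocytes. Id1, Id2 and Id3 encode inhibitors of basic helix-loop-helix factors that BMP signals induce. The Id2 region (chr12:25098783-25099029), 2814 bp upstream, had SMAD4 values of 258 and 319 in Kupffer cells and 113 and 94.1 in BMDM. Its H3K27ac was 100 and 121 CPM in Kupffer cells, 95.2 and 98.0 CPM in RLM and 4.22 and 5.7 CPM in monocytes. RLM thus stood near the Kupffer cell level, 4.28 ± 0.24 over monocytes (adjusted p = 1.02e-24). The Id3 region (chr4:136140478-136140698) was graded, with 47.5 and 63.1 CPM in Kupffer cells, 14.7 and 15.3 CPM in RLM and 2.31 and 2.15 CPM in monocytes, 1.88 ± 0.24 over RLM (6.67e-10) and 4.63 ± 0.29 over monocytes (2.03e-23). Id1 was graded in the same order, with 22.8 and 28.7 CPM in Kupffer cells, 8.41 and 7.42 CPM in RLM and 3.88 and 3.8 CPM in monocytes. Cdkn1a, the cell cycle inhibitor p21, was called lower, at 13.9 and 14.0 CPM in Kupffer cells, 50.6 and 48.6 CPM in RLM and 71.4 and 70.8 CPM in monocytes, -2.34 ± 0.22 against monocytes (1.8e-15). Junb was not called between Kupffer cells and monocytes (-0.42 ± 0.19).

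**Figure D4:**
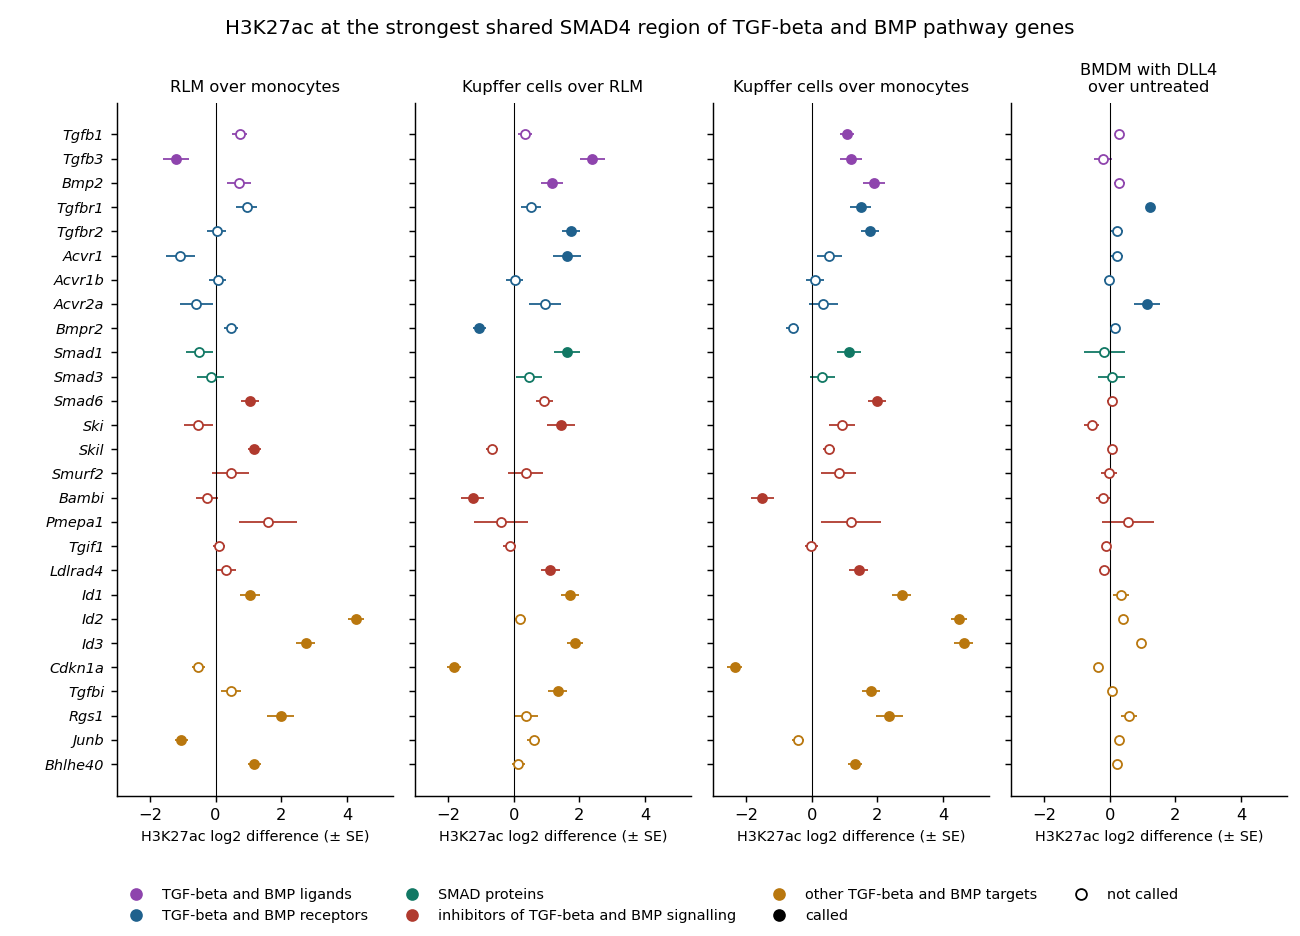
H3K27ac log2 difference (horizontal, ± SE from edgeR) at the strongest shared SMAD4 region of 27 TGF-beta and BMP pathway genes in 4 comparisons, coloured by role. Filled points passed adjusted p under 0.05 and a 2-fold difference; Id2 and Id3 stand farthest to the right against monocytes and Cdkn1a farthest to the left.

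Summed over the pathway groups, calls higher in Kupffer cells than in monocytes were 3 of 3 ligands, 2 of 6 receptors, 1 of 2 SMAD proteins, 2 of 8 inhibitors and 7 of 9 other targets, beside 24.9% of all regions. Calls lower were 1 inhibitor (Bambi) and 1 other target (Cdkn1a), beside 17.7% of all regions. With DLL4 the only calls among the 28 genes were 2 receptors, Tgfbr1 and Acvr2a, both higher, where 4.89% of all regions were called higher. Acvr2a had 2.46 and 3.28 CPM with DLL4 and 1.36 and 1.27 CPM untreated (1.13 ± 0.40, adjusted p = 0.0387), and lost the call without DLL4 library 2 (0.91) or either untreated library.

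Groups of macrophage genes were read in the same way. Of 14 listed LXR targets, 12 had a shared region, and 11 of these were higher in Kupffer cells than in monocytes and 8 in RLM than in monocytes, beside 33.3% and 12.2% of shared regions and 24.9% and 8.57% of all regions. Mertk, a receptor for apoptotic cells, had 44.6 and 57.7 CPM in Kupffer cells, 24.3 and 24.6 CPM in RLM and 1.24 and 1.65 CPM in monocytes, 4.07 ± 0.31 between RLM and monocytes (adjusted p = 3.14e-18). Lpcat3, a phospholipid acyltransferase, had 36.0 and 41.1 CPM in Kupffer cells, 43.5 and 37.9 CPM in RLM and 10.7 and 8.34 CPM in monocytes, so that RLM and Kupffer cells overlapped. The Arl4c region, 49425 bp from its start, was lower in RLM than monocytes, with 10.5 and 11.2 CPM in Kupffer cells, 4.86 and 9.14 CPM in RLM and 15.6 and 23.4 CPM in monocytes (-1.46 ± 0.29, adjusted p = 6.89e-05). Of the 12 regions, 10 carried reproducible LXR peaks in both cell types; the list was drawn up as known LXR targets, so this is no independent result.

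Of 23 Kupffer cell identity genes, 9 had a shared region, while 20 had a Kupffer cell only region. Over all genes, 4970 were nearest to a shared region and 6556 to a Kupffer cell only region. Among other lists, 6 receptors had a shared and 8 a Kupffer cell only region, and 4 and 7 Notch genes. Of the lineage factors, 15 had each. Clec4f, Timd4, Vsig4, Spic, Nr1h3 and Marco were among the 14 without a shared region. Of the 9, 6 had calls for Kupffer cells above both RLM and monocytes: Cd5l, Id3, Id1, Cd163, Il18bp and Slc40a1. Of shared regions 33.4% and 33.3% were called higher in these comparisons, and of all regions 22.3% and 24.9%. The list was drawn up as known Kupffer cell genes, so the calls at the 9 are no independent result. The Slc40a1 promoter, of the iron exporter ferroportin, had 24.6 and 31.3 CPM in Kupffer cells, 5.39 and 3.25 CPM in RLM and 1.65 and 1.4 CPM in monocytes, 2.72 ± 0.31 over RLM (adjusted p = 1.78e-11). With DLL4 it had 50.1 and 59.5 CPM, against 24.2 and 19.4 CPM untreated (1.34 ± 0.10, adjusted p = 9.91e-13). The region assigned to Il18bp, inside Rnf121, also rose with DLL4, to 51.4 and 55.9 CPM against 15.2 and 13.0 CPM untreated (1.94 ± 0.10).

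Among 20 macrophage lineage factors, 15 had shared regions, 58 in all. Irf8 had 35.2 and 47.5 CPM in Kupffer cells, 9.33 and 8.74 CPM in RLM and 3.14 and 4.21 CPM in monocytes, and Nfe2l2, the regulator of the oxidative stress response, 35.4 and 42.2 CPM in Kupffer cells, 13.7 and 15.4 CPM in RLM and 5.54 and 6.19 CPM in monocytes. Both were called higher in each step. The promoter of Spi1, which encodes PU.1, had 68.1 and 85.8 CPM in Kupffer cells, 43.1 and 48.3 CPM in RLM and 34.8 and 50.2 CPM in monocytes, and its differences stayed under 2-fold. The region assigned to Klf4, a monocyte factor, lies 91060 bp from its start. That region was lower in RLM (2.36 and 5.59 CPM) than in monocytes (15.7 and 19.2 CPM), by -2.10 ± 0.33 (adjusted p = 4.24e-07). The immediate early AP-1 and EGR genes were mixed: of 10 with a shared region, 3 were higher and 3 lower in RLM than in monocytes, Fos, Batf and Maff against Fosl2, Junb and Atf3, beside 8.57% and 9.14% of all regions. Without monocyte library 2, Fosl2 (-0.94) and Junb (-0.84) lost the call, which left Atf3 of the 3 lower; Fosl2 lost it without RLM library 1 as well (-0.84), and both with scaling to total tags. For Fos, 58890 bp from the start, RLM had 44.1 and 40.0 CPM and monocytes 10.1 and 3.22 CPM; for Atf3, RLM had 21.9 and 18.7 CPM and monocytes 58.5 and 64.7 CPM. Of 11 Notch genes 4 had a shared region, and Notch1 alone was called, higher in Kupffer cells (18.1 and 17.9 CPM) than RLM (6.04 and 5.49 CPM) and monocytes (7.27 and 7.35 CPM).

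At 8 of the 10 regions with the strongest SMAD4, mean acetylation was highest in Kupffer cells, and at Skil and by Smad7 it was highest in RLM. How often this order of means held over all regions was not counted. Median levels over all shared regions were also highest in Kupffer cells, at 15.9 and 18.0 CPM, against 9.07 and 8.94 CPM in RLM and 9.92 and 9.99 CPM in monocytes. The Mtus1 intron had 28.1 and 39.5 CPM in Kupffer cells, 8.41 and 8.33 CPM in RLM and 1.65 and 1.73 CPM in monocytes, 4.32 ± 0.32 over monocytes (adjusted p = 1.06e-19). The regions near Ccdc88b and Cyth4 were 2.04 ± 0.28 and 1.95 ± 0.26 higher in Kupffer cells than RLM. The Tgfbr1 upstream region had 13.5 and 14.6 CPM in Kupffer cells, 6.7 and 12.4 CPM in RLM and 3.64 and 6.36 CPM in monocytes, and was called only against monocytes (1.49 ± 0.31). By Smad7, Kupffer cells had 21.6 and 29.2 CPM, RLM 39.2 and 45.8 CPM and monocytes 32.3 and 30.6 CPM, and no comparison reached 2-fold.

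Among regions that passed the naming rule (given below), the largest called increases of RLM over monocytes were at C1qb, Abca1, Pgpep1 (4.62 ± 0.34), Snx24 (4.56 ± 0.31) and Id2. The rule ranks only regions above the median level of called ones, which leaves out the C1qc promoter (4.79 ± 0.43). C1qb and C1qc encode chains of complement C1q. The C1qb promoter (chr4:136886093-136886361) had 62.2 and 75.2 CPM in Kupffer cells, 33.5 and 33.6 CPM in RLM and 0.579 and 0.33 CPM in monocytes, 6.17 ± 0.35 for RLM over monocytes (adjusted p = 1.81e-24). An intron of Abca1 (chr4:53158730-53158908) had 67.0 and 94.2 CPM in Kupffer cells, 77.3 and 85.6 CPM in RLM and 2.31 and 2.48 CPM in monocytes, so RLM stood within the range of Kupffer cells. A second Abca1 intron region (chr4:53155422-53155711) had 48.9 and 72.0 CPM in Kupffer cells but 7.36 and 8.13 CPM in RLM, and 1.24 and 0.413 CPM in monocytes. The SMAD4 sites of 1 gene were thus acetylated to different extents in RLM. On the low side, a region inside Cabin1 (nearest start Susd2) had 18.5 and 24.5 CPM in Kupffer cells, 2.36 and 1.63 CPM in RLM and 25.0 and 36.7 CPM in monocytes, -3.97 ± 0.33 for RLM (1.4e-16). The next largest decreases under this rule were at Fam83a (-3.47 ± 0.35), Gas7 (-3.31 ± 0.30) and Itgb2, a leukocyte integrin subunit (-3.17 ± 0.30).

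Under the same naming rule, the largest differences between Kupffer cells and RLM were at regions of Pmp22 (1 tag in RLM library 1), Ttyh2, Ptprm, Chp2 and Sh3bp5. They ranged from 5.86 ± 0.40 (Pmp22) to 4.77 ± 0.31 (Sh3bp5). The Ptprm promoter (chr17:67354552-67354732, sequence above), of a receptor tyrosine phosphatase, had 61.6 and 70.0 CPM in Kupffer cells, 2.36 and 1.52 CPM in RLM and 1.16 and 1.82 CPM in monocytes, a difference of 5.10 ± 0.31 from RLM (adjusted p = 1.15e-22). BMDM with DLL4 had 0.651 and 0.428 CPM and untreated BMDM 0.292 and 0.543 CPM there. SMAD4 was nevertheless called in BMDM, at 22.4 and 40.9, against 124 and 154 in Kupffer cells. In the other direction, Gpa33, B4galnt1, Sema4d, Smim3 and Slc1a5 ranged from -3.81 ± 0.32 to -2.77 ± 0.37. At the Gpa33 intron (chr1:166138303-166138481) Kupffer cells had 3.1 and 1.58 CPM, RLM 31.3 and 30.3 CPM and monocytes 9.26 and 8.34 CPM, and SMAD4 was 57.0 and 48.8 in Kupffer cells and 240 and 132 in BMDM. Against monocytes the lowest under the rule was an intron of Runx2, with 0.835 and 0.528 CPM in Kupffer cells, 5.52 and 4.77 CPM in RLM and 22.7 and 29.2 CPM in monocytes (-5.32 ± 0.39).

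**Figure D5:**
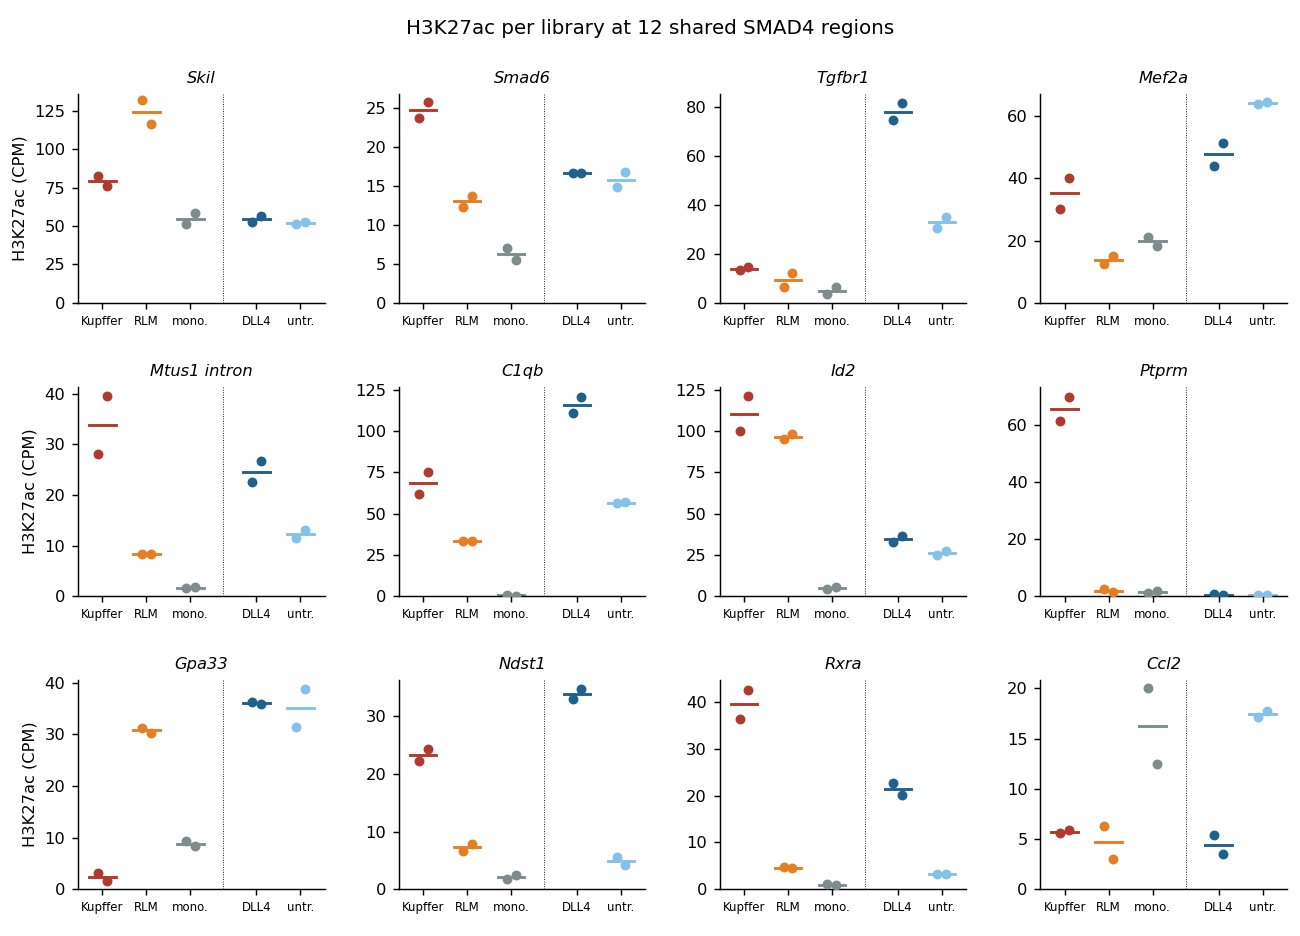
H3K27ac (CPM, vertical, from 0) per library at 12 shared SMAD4 regions, with Kupffer cells, RLM and monocytes left of the dotted line and BMDM with DLL4 and untreated BMDM right of it; points are libraries and bars the mean of 2. The 2 tables were scaled separately, so heights are not compared across the line; Id2 is nearly as high in RLM as in Kupffer cells, Ptprm is high in Kupffer cells alone, and Ndst1 is higher with DLL4 than without.

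In BMDM, DLL4 changed H3K27ac at a small part of the shared regions, mostly upward. Of 8086 tested, 483 (5.97%) were called higher and 88 (1.09%) lower than untreated, against 4.89% and 2.64% of all 82089 regions. Of Kupffer cell only regions 7.91% were higher and 0.982% lower, and of BMDM only regions 4.14% and 4.54%. Of the regions called higher, 5.8% lay within 1 kb of a start, against 35.6% of those not called. RBPJ of BMDM covered 95.4% and 93.3% of these groups, LXR of BMDM 77.4% and 60.5%, and RBPJ of Kupffer cells 32.1% and 27.8%.

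Ndst1, a heparan sulfate sulfotransferase, had the largest gain under the naming rule, with 33.0 and 34.7 CPM with DLL4 and 5.59 and 4.16 CPM untreated, 2.81 ± 0.15 (adjusted p = 5.98e-17). The region 53014 bp from the start of Rxra (chr2:27763463-27763731), which encodes the dimer partner of LXR, had 22.7 and 20.2 CPM with DLL4 and 3.16 and 3.26 CPM untreated, 2.74 ± 0.18 (1.32e-14). It had 36.4 and 42.7 CPM in Kupffer cells, 4.73 and 4.47 CPM in RLM and 1.07 and 0.908 CPM in monocytes, and carried LXR peaks in both cell types and no reproducible RBPJ peak in either. At the strong Tgfbr1 upstream region DLL4 gave 74.7 and 81.6 CPM, against 30.8 and 35.3 CPM untreated, 1.24 ± 0.08 (2.06e-14). The C1qb and C1qc promoters were each 1.04 ± 0.07 higher, and fell just under 2-fold (0.97 each) without DLL4 library 2. Of the losses, the largest under this rule was 30569 bp upstream of Ccl2, the monocyte chemoattractant, with 5.35 and 3.52 CPM with DLL4 and 17.1 and 17.7 CPM untreated (-1.97 ± 0.19, 2.17e-10). Monocytes were also the highest liver or blood group at the Ccl2 region, with 5.6 and 5.87 CPM in Kupffer cells, 6.31 and 3.05 CPM in RLM and 20.0 and 12.5 CPM in monocytes.

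The BMDM and liver experiments share no library, so their calls could be set side by side. Among 8000 shared regions tested in both, 472 were higher with DLL4, and 261 of these were also higher in Kupffer cells than RLM. That is 55.3% of the DLL4 calls and 9.76% of the Kupffer cell calls, where 33.4% of all 8000 were higher in Kupffer cells. The median log2 difference of Kupffer cells from RLM was 1.13 at regions higher with DLL4 and 0.54 at those not called. For Kupffer cells over monocytes the overlap was 277 (58.7% of the DLL4 calls, 10.4% of the Kupffer cell calls), and for RLM over monocytes 132 (28.0% of the DLL4 calls, 13.6% of the RLM calls), where 33.3% and 12.2% of all were called. Of 86 regions lower with DLL4, 29 (33.7%) were higher in Kupffer cells than RLM where 33.4% of all 8000 were, and 30 (34.9%) were lower in RLM than in monocytes, where 12.9% of all were. Regions higher with DLL4 lay mostly beyond 1 kb from a start, where Kupffer cell calls were more frequent as well, and the part of position in this overlap was not tested.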

How the data were processed

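Peaks of SMAD4, LXR and RBPJ were called per library with HOMER findPeaks against an input, with an FDR of 0.001 and 4-fold over both input and the surrounding 10000 bp, per the file headers. The deposited normalized tag count (signal) is tags per 10 M, and the deposited fold over input (ratio) is the tags of a peak over those of its input; the deposited findPeaks score (tags at the peak after position filtering) was not used in any result. SMAD4 libraries held 18.9 and 18.0 M tags (Kupffer cell nuclei) and 11.1 and 13.9 M (BMDM). H3K27ac came as raw tag counts in merged 2000 bp regions, deposited by the authors in 2 tables, with 8.22 and 19.5 M tags in regions (Kupffer cells), 7.37 and 9.47 (RLM), 11.6 and 12.3 (monocytes), 22.0 and 21.6 (BMDM with DLL4) and 20.2 and 27.2 (untreated BMDM). The submitters' processing notes name mm10, Bowtie2 and HOMER, and versions are not given in the sources used here.

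Tag counts of all regions passing edgeR's filter (80982 of 84647 and 82089 of 95038) were tested with edgeR 4.0.16 (R 4.3.3; TMM, robust quasi-likelihood, Benjamini-Hochberg) with group as the only term, the 6 liver and blood libraries in 1 fit. Each SMAD4 region was read at the overlapping H3K27ac region with the nearest centre. The procedure was tested on simulated data: of regions changed 2-fold, 4-fold and 8-fold in the Kupffer cell and RLM comparison, 18%, 63% and 100% were called. Whether paired libraries of a group derive from different mice or cultures is not in the labels; p-values then reflect library spread, which may be technical. Replicate numbers do not pair libraries (correlations of same-numbered deviations from -0.0217 to 0.0487).

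The regions, the 10 gene lists and the tests were chosen with earlier results of these data known. Named are the 10 regions with the highest lowest-library SMAD4, the strongest shared region per listed gene, and, per comparison and direction, up to 5 called regions with the largest difference, without overlap of libraries, above the median level of called regions and with no predicted gene. Transcription starts were rebuilt from the deposited annotation, and 96.7% of 18697 checked starts lay within 1 kb of a RefSeq window (GRCm38.p6) of the same gene. Alternatives were DESeq2 1.42.0, other scalings and filters, a replicate block, leaving out libraries, and stricter overlaps or peaks. Sequences under the distal peaks were not analysed here. One pathway gene with a shared region and one region picked by the naming rule count in the totals and are not reported here by themselves.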

Additional observations from a re-analysis of the deposited data

How the results depend on the processing

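The number of shared regions fell to 5094 with a reciprocal overlap of 50% and to 4909 with peaks of at least 8-fold over input, and ranged from 9072 to 11598 with 1 SMAD4 library of a cell type left out. With the 50% overlap the H3K27ac calls were 625 higher and 672 lower (RLM against monocytes), 1755 higher (Kupffer cells against RLM) and 1728 higher and 550 lower (Kupffer cells against monocytes). Counting each overlapping H3K27ac region gave 1562 and 1576, 570 lower for Kupffer cells against RLM, and 4022 and 1335 for Kupffer cells against monocytes. The number of regions counted differs between these settings, and shares were not computed for them. Calls lower in Kupffer cells than in RLM ranged from 221 (without Kupffer cell library 2, the deepest of its table) to 351 over libraries left out, and calls higher from 2095 to 2918; the cause was not tested. The shares with LXR and RBPJ of Kupffer cells and LXR and RBPJ of BMDM were 58.7%, 24.7%, 50.4% and 80.3% with the 50% overlap (RBPJ of BMDM then covered 81.3% of BMDM only regions), and 56.3%, 3.0%, 40.4% and 69.0% with peaks of at least 8-fold. From a single library they were 76.6% to 89.5%, 40.5% to 48.3%, 70.7% to 74.0% and 94.9% to 95.8%. Within 3 kb of a start lay 41.4%. With the replicate block, calls were 2672 higher and 346 lower for Kupffer cells against RLM, 2670 and 851 against monocytes, 968 and 1036 for RLM against monocytes, and 490 and 93 with DLL4. Scaling to total tags moved the median of all regions by -0.144 (Kupffer cells against RLM) and -0.112 (against monocytes) on the log2 scale. Of the named regions' calls, none changed direction; without Kupffer cell library 2, 14 of 78 values against RLM lost the call, among them Bmp2, Bambi, Acvr1, Fli1, Mitf, Tfeb and Mertk. Between RLM and monocytes, Fosl2, Id1 and Slc40a1 lost their call without RLM library 1; between Kupffer cells and monocytes, single left-out libraries ended the call of Klf4, Smad1, Scd2, Zeb2, Slc1a5 or Vps54. Counting each H3K27ac region once and measuring distance from it, both chosen after seeing the data, moved no count by over 1.5 times. A call needs an estimated difference of at least 2-fold at any depth, and 18% of simulated 2-fold differences were called (Kupffer cells against RLM), so a region not called is not shown to be unchanged; the part of depth was not tested.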
